A study of Mus musculus with 24 samples.

Results

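miR-378 and miR-486 are microRNAs (miRNAs) linked to muscle differentiation, and their levels were followed in mouse muscle stem cells before and after muscle injury. Both were found by exact assay name (mmu-miR-378 and mmu-miR-486), which gave 2 of the 584 miRNA assays on the arrays. The cells were isolated from male C57BL/6 mice aged 8 weeks. Quiescent stem cells (QSC) formed the 0 h group, and activated stem cells (ASC) formed the groups harvested 36, 60 and 72 h after injury. Each group was measured in 3 replicates on quantitative PCR cards of type A, which carries miR-486, and of type B, which carries miR-378. The labels give neither the injury agent nor the cell sort nor the number of mice, and no untreated muscle or mature fibre was used here as a comparison. Since the replicates are described as technical in the design text, every p-value measures the spread between arrays and none the spread between mice.

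A miRNA is a short RNA that pairs through its seed, bases 2 to 8, with sites in messenger RNAs and lowers their translation and stability. In the RefSeq annotation of GRCm38.p6, Mir378a lies within Ppargc1b, the gene of the metabolic coactivator PGC-1β. In mouse myoblasts miR-378 is reported to be induced by the myogenic factor MyoD and to repress MyoR, an antagonist of MyoD. Mir486 and Mir3107, the gene of miR-486b, both lie within Ank1, an ankyrin gene used in muscle and red blood cells. In mouse myoblasts miR-486 is reported to repress Pax7, the transcription factor of the stem cell state, and it also targets Foxo1. It is abundant in red blood cells as well.

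A few muscle-related or similarly behaving miRNAs serve below as points of reference for miR-378, and their mature sequences are shown for that reason. miR-206 and miR-133b are muscle-specific miRNAs from neighbouring hairpins, and miR-149 had the time course nearest to that of miR-378. Sequences are from RefSeq (GRCm38.p6), written 5′ to 3′ on the plus strand, with the seed in capitals. The 3 seeds differ. They lie at chr1:20679055-20679076 (miR-206), chr1:20682834-20682855 (miR-133b) and chr1:92850381-92850403 (miR-149).
miR-206-3p: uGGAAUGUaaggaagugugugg
miR-133b-3p: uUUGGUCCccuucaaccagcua
miR-149-5p: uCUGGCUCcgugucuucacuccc

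Levels are given as the mean threshold cycle (Ct) of U6 small nuclear RNA on an array minus the Ct of the assay. This is a log2 scale on which a higher value means more RNA relative to U6. An assay counted as detected on an array when all its spots had a Ct below 35. On all 12 arrays of their card, 152 of the 375 card A assays and 70 of the 209 card B assays were detected. The label of a muscle stem cell time course was set beside miR-489, a marker of quiescent muscle stem cells. The level of miR-489 lay between -9.19 and -8.93 at 0 h and between -15.91 and -15.58 at 72 h. It is no independent check of the label, since the marker lists were chosen with earlier results of these data known.

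The members differed in whether they could be measured at all. miR-378 gave a Ct in both of its spots on 12 of 12 arrays, and the spots of an array differed by 0.0041 to 0.127 cycles. miR-486 gave no Ct on any of its 12 arrays, so it has no level, no fold change and no place in any test.

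Relative to U6, miR-378 was lowest in quiescent cells and was called higher at 60 and 72 h. With Y1 RNA or the mean of the assays found on every array as normalizer, its 36 h mean lay below that of 0 h instead (log2 -0.38 and -0.13). The calls at 60 and 72 h were not kept under every normalizer either. With U6, the level of miR-378 at 0 h was -9.70, -9.16 and -9.35 on the 3 arrays (mean -9.40, SD 0.28). At 36 h it was -8.72, -8.85 and -8.69 (mean -8.76, SD 0.087). At 60 h it was -8.44, -8.31 and -8.37 (mean -8.37, SD 0.062), and at 72 h -8.25, -8.32 and -8.31 (mean -8.29, SD 0.038). Relative to U6, the arrays of 0, 36 and 60 h did not overlap, whereas those of 60 and 72 h did. The share of all assays without such overlap was not counted, so the lack of overlap is not read as particular to miR-378. By another measure, a limma adjusted p below 0.05 was common: 79.4% of assays reached it at 36 h against 0 h and 79.9% at 60 h against 36 h. The 0 h arrays spread most, and the lowest of them was replicate 1.

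**Figure D1:**
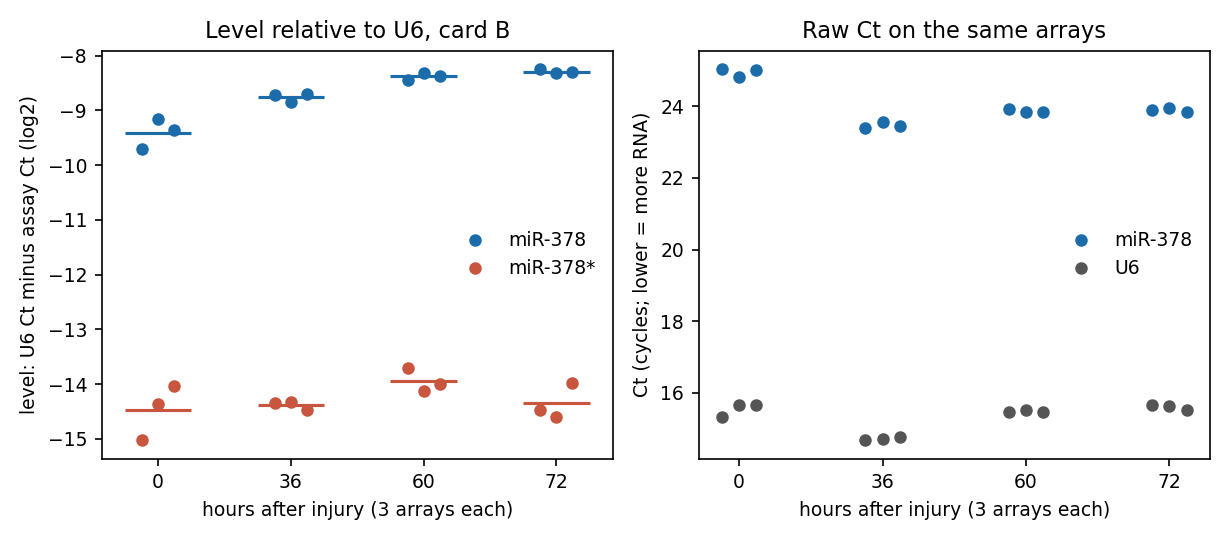
Left, level relative to U6 (log2) of miR-378 and of its partner strand miR-378* on each card B array at 0, 36, 60 and 72 h after injury. Right, the raw Ct of miR-378 and U6 on the same arrays. Points are arrays (3 per group) and lines are group means. The mean level of miR-378 goes from -9.40 at 0 h to -8.29 at 72 h, while the arrays of miR-378* at 0 h overlap those of every later group, and U6 has its lowest Ct at 36 h.

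Against 0 h, miR-378 was 2.04-fold higher at 60 h (log2 1.03 ± 0.14 SE, 95% interval 0.72 to 1.35, limma adjusted p = 4.26e-05, n = 3 arrays per group). At 72 h it was 2.16-fold higher (log2 1.11 ± 0.14, 95% interval 0.80 to 1.43, limma adjusted p = 2.20e-05). Both pass the call rule of an adjusted p below 0.05 and at least 2-fold with U6. The call is lost at 60 h with Y1 (0.77) and with the global mean of the assays found on every array (0.97), and at 72 h with Y1 (0.39). Calls were common in these comparisons: 64.4% of the 250 assays tested at 60 h were called in either direction and 28% higher, and 66.8% of 244 were called at 72 h and 20.9% higher. An adjusted p below 0.05 whatever the fold was reached by 85.6% of assays at 60 h and 83.6% at 72 h. The split of calls moves with the normalizer. At 60 h it was 70 higher and 91 lower with U6 and 179 and 20 with snoRNA202, and at 72 h 51 and 112 with U6 and 166 and 24 with snoRNA202. Both folds lie close to the 2-fold limit. Without replicate 1 of the 0 h arrays the log2 change was 0.88 at 60 h and 0.96 at 72 h, below the limit, and without replicate 2 of the 60 h arrays it was 1.00 at 60 h, just below it.

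At 36 h miR-378 was 1.57-fold above 0 h (log2 0.65 ± 0.14, 95% interval 0.33 to 0.96, limma adjusted p = 0.00154), which did not reach the 2-fold needed for a call. Of 272 assays tested at 36 h, 79.4% had an adjusted p below 0.05 whatever the fold and 56.2% were called (44.1% higher, 12.1% lower). The split of 120 higher and 33 lower became 180 higher and 6 lower with snoRNA202, and 59 higher against 89 lower under the global mean. The direction at 36 h depends on the normalizer: the log2 change was -0.38 with Y1 RNA and -0.13 with the global mean.

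Between the later groups no difference in miR-378 relative to U6 was called, but this depends on the normalizer. The level at 60 h exceeded that at 36 h by 0.38 ± 0.14 (log2, limma adjusted p = 0.0286), and that at 72 h exceeded 36 h by 0.46 ± 0.14 (limma adjusted p = 0.00984), each under 2-fold. The 60 and 72 h groups, neighbours in the order of levels, differed by 0.08 ± 0.14 (95% interval -0.23 to 0.40, limma adjusted p = 0.616). miR-378 was called higher at 60 than at 36 h with snoRNA202 (1.82), Y1 (1.16), the global mean (1.10), snoRNA429 (1.31) and U87 (1.01), and at 72 than at 36 h with the same normalizers except Y1 (1.15 to 1.97). From 60 to 72 h its change was -0.38 with Y1, not called.

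Calls over all assays relative to U6 were mostly decreases in these intervals. From 36 to 60 h, 54.8% of 279 assays were called (5.38% higher, 49.5% lower), and 79.9% had an adjusted p below 0.05 whatever the fold. From 36 to 72 h, 73.3% of 270 were called (4.07% higher, 69.3% lower), and 86.3% passed on p alone. From 60 to 72 h, 36.6% of 265 were called (0.755% higher, 35.8% lower), and 75.5% passed on p alone. These shares too are relative to U6. From 36 to 60 h, 15 assays were called higher and 138 lower with U6, 94 and 54 under snoRNA202, and 75 and 64 under the global mean. From 36 to 72 h the split was 11 and 187 with U6, 70 and 69 under snoRNA202, and 76 and 68 under the global mean. From 60 to 72 h it was 2 and 95, 9 and 37, and 25 and 17.

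The position of miR-378 among the assays of its card moved with time. At 36 h its change ranked 44th from the top of 95 tested card B assays, near their median change of 0.54. At 60 h it ranked 22nd of 82, with a card median of -0.16, and at 72 h 15th of 78, with a card median of -0.28. From 36 to 72 h the median card B assay had a log2 change of -1.09 and miR-378 one of 0.46, which ranked 15th of 89. A change of normalizer shifts all assays of an array alike, so it can move these ranks only through assays missing from some arrays.

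**Figure D2:**
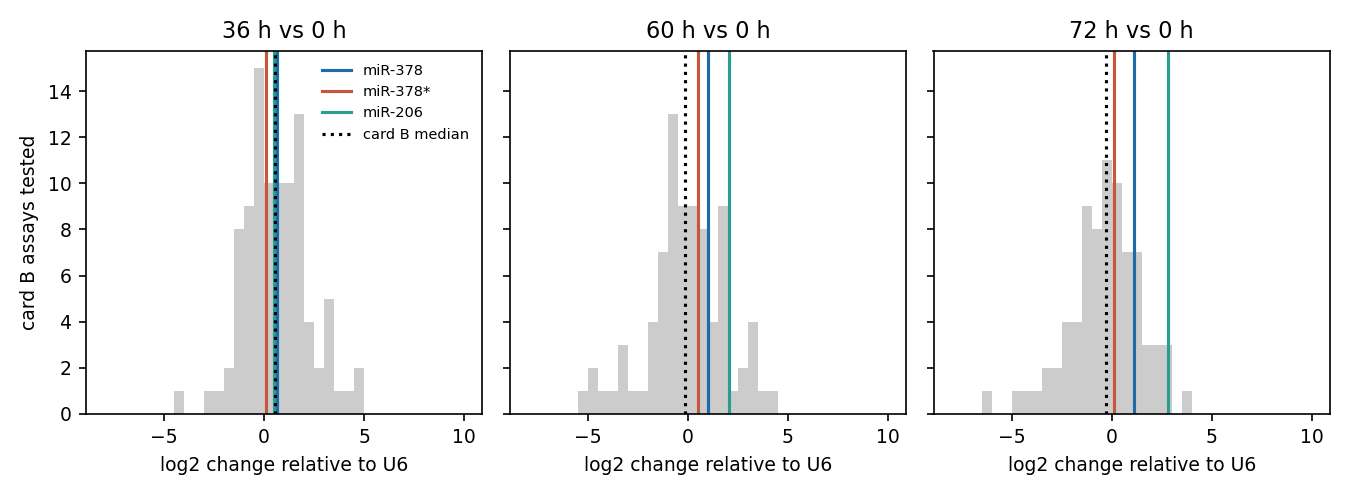
Histograms of the log2 change relative to U6 of the card B assays tested at 36, 60 and 72 h against 0 h, with the number of assays on the vertical axis. Solid lines mark miR-378, miR-378* and miR-206 and the dotted line the median assay. miR-378 lies at the median at 36 h (0.65 against 0.54) and above it at 72 h (1.11 against -0.28). The sign at 36 h turns with Y1 or the global mean as normalizer.

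The size of the change relative to U6 rests on U6 itself. In the 4 groups in order of time, the mean Ct of miR-378 was 24.96, 23.47, 23.86 and 23.90, so the raw signal came up earliest at 36 h. The mean Ct of U6 on the same arrays was 15.56, 14.71, 15.48 and 15.60. U6 therefore crossed its threshold 0.84 cycles earlier at 36 h than at 0 h and lay within 0.072 cycles of its 0 h value at 60 and 72 h. The other control RNAs did not keep a fixed ratio to U6 on card B. Relative to U6, snoRNA202 changed by -1.11, -2.55 and -2.61 at 36, 60 and 72 h, and Y1 by 1.03, 0.26 and 0.72. With snoRNA202 as normalizer the log2 change of miR-378 at 72 h was 3.72, and with Y1 it was 0.39. With the small nucleolar RNA snoRNA135, which stayed nearest to U6 at 72 h, it was 1.46.

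**Figure D3:**
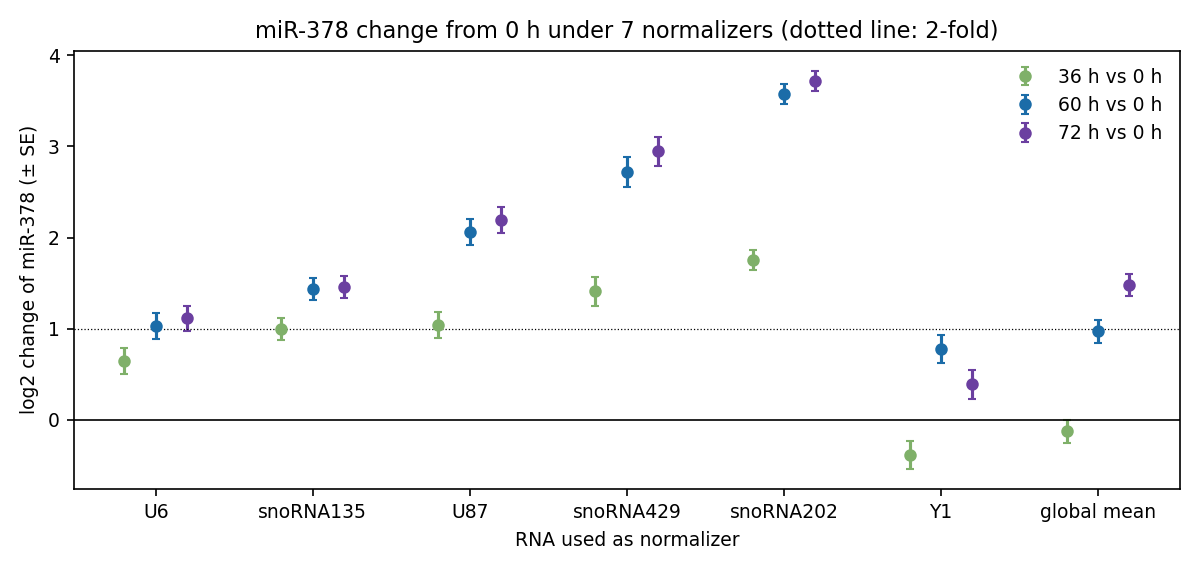
Log2 change of miR-378 against 0 h (points, with standard errors from the limma fits) when each of 6 control RNAs or the global mean of the assays detected on all arrays is used as normalizer. The values at 60 and 72 h are above 0 under all 7 normalizers, from 0.77 to 3.58 at 60 h and from 0.39 to 3.72 at 72 h. At 36 h they run from -0.38 to 1.76, and those with Y1 and the global mean are below 0.

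The fold of miR-378 in the authors' deposited table differs most from the value above at 36 h. That table, which writes 36 h as day 1.5, gives an average fold over day 0 of 7.63 and 7.43 for the 2 spots of miR-378. At 60 h, day 2.5, the authors' deposited table gives 2.11 and 1.98. The Ct constant subtracted in the table equals the mean U6 Ct of the group within 0.001 except on card B at 36 h, where it is 16.97 against a mean U6 Ct of 14.71. That offset of 2.26 cycles is 4.78-fold and applies to every card B assay at this time. Divided by it, the 2 folds of the authors' deposited table are 1.60 and 1.56, beside the 1.57 computed here. The reference behind the constant is not given in the sources used here.

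miR-378*, the strand from the other arm of the miR-378 hairpin, was measured in 1 spot on the same 12 arrays and was not called in any comparison with 0 h. Its level was -15.03, -14.37 and -14.03 on the 0 h arrays and -14.35, -14.32 and -14.48 on the 36 h arrays. On the 60 h arrays it was -13.71, -14.12 and -14.00, and on the 72 h arrays -14.47, -14.59 and -13.99. The 60 h arrays were highest on average, and replicate 1 at 0 h was again the lowest of its group. Against 0 h, the later groups in order of time had log2 changes of 0.09 ± 0.25, 0.53 ± 0.25 and 0.13 ± 0.25 (limma adjusted p = 0.741, 0.0675 and 0.650). The sign of the change flips with Y1 at 36 h (-0.94) and 72 h (-0.60) and with the global mean at 36 h (-0.68), and the changes are called higher with snoRNA202 at all 3 later times and with U87 at 60 and 72 h.

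The difference between both strands on 1 array is free of the normalizer. Its absolute value also holds the efficiencies of both assays, so only its change over time was read. Whether the miR-378 assay also reads genes related to Mir378a is not given in the sources used here. A change in this difference therefore need not be a change in the ratio of the 2 strands. miR-378 minus miR-378* was 5.32, 5.21 and 4.68 on the 0 h arrays (mean 5.07, SD 0.34) and 5.63, 5.46 and 5.79 on the 36 h arrays. It was 5.27, 5.81 and 5.63 on the 60 h arrays and 6.22, 6.27 and 5.68 on the 72 h arrays. The 36 and 72 h arrays lie above all 0 h arrays, whereas one 60 h array lies among them. Over the 4 groups an exact permutation test of the arrays gave p = 0.0101 (also 0.0101 after Benjamini-Hochberg adjustment over 2 such tests). The test was chosen after its values had been seen, and neither p accounts for that choice. Pairwise against 0 h, the mean difference changed by 0.56 at 36 h (exact p = 0.1), 0.50 at 60 h (exact p = 0.2) and 0.99 at 72 h (exact p = 0.1), where 0.1 is the smallest p that 3 against 3 arrays allow. Leaving out 1 array at a time gave 0.79 to 1.17 for the mean difference at 72 h.

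miR-206, which is reported to repress Pax7 and Pax3 in mouse muscle cells, rose further than miR-378 on the same card at 60 and 72 h but not at 36 h. Against 0 h its log2 change was 0.48 ± 0.12, 2.05 ± 0.12 and 2.83 ± 0.12 in order of time (limma adjusted p = 0.00272, 2.12e-08 and 1.08e-09). The first of these was below 2-fold and turns negative with Y1 (-0.55) and the global mean (-0.29). Within an array, miR-206 minus miR-378 was 5.64, 5.36 and 5.64 at 0 h (mean 5.55, SD 0.16) and 5.29, 5.54 and 5.32 at 36 h (mean 5.38, SD 0.14). It was 6.61, 6.51 and 6.56 at 60 h (mean 6.56, SD 0.048) and 7.26, 7.29 and 7.23 at 72 h (mean 7.26, SD 0.027). The 0 and 36 h arrays overlap, and the 60 and 72 h arrays lie apart from them and from each other.

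The gap between miR-206 and miR-378 thus changed against 0 h by -0.16, 1.02 and 1.71 in order of time, whatever the normalizer. An exact permutation test over the 4 groups gave p = 0.00013 (0.00026 after adjustment over the 2 within-array tests), where 6.49e-05 is the smallest value possible. The pairwise exact p was 0.2 at 36 h and 0.1 at 60 and 72 h. Without 1 array at a time the gap at 72 h changed by 1.62 to 1.76. Both within-array tests were chosen after their values had been seen, and their p-values do not account for that choice.

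**Figure D4:**
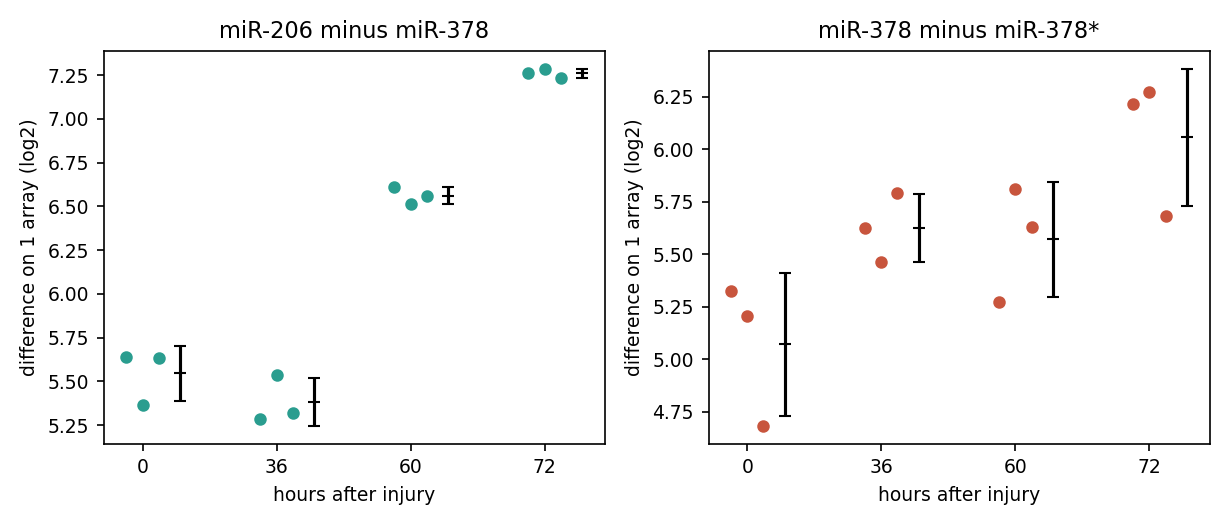
Differences between 2 assays on the same array (log2), in which the normalizer cancels: miR-206 minus miR-378 (left) and miR-378 minus miR-378* (right), by hours after injury. Points are arrays, and the bars beside them show the mean and SD of 3 arrays. The left mean goes from 5.55 at 0 h to 7.26 at 72 h with no overlap of these groups, and the right mean from 5.07 to 6.06 with more spread between arrays.

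The muscle-enriched miRNAs that could be tested were called higher than at 0 h at 60 and 72 h, as miR-378 was. Of 8 assays for 7 names (miR-1 on a mouse and a rat assay, miR-133a, miR-133b, miR-206, miR-208, miR-208b and miR-499), the last 3 gave no Ct on any array and 5 were tested. Of these 5, 4 were called higher at 36 h and all 5 at 60 and 72 h, where 44.1%, 28% and 20.9% of all assays were, and none was called lower. Their median log2 changes were 2.19, 2.19 and 2.83, beside 0.82, -0.37 and -0.77 over all tested assays. The 5 were called higher at 60 and 72 h under U6, snoRNA135, snoRNA202, Y1, U87 and the global mean alike, and at 36 h the number called ran from 2 with the global mean to 5 with snoRNA202. Between later groups they did not all move together relative to U6. From 36 to 60 h 2 of the 5 were called higher and 1 lower, the mouse assay of miR-1 (log2 -1.27 ± 0.24, limma adjusted p = 0.000675). The rat assay of miR-1 went the other way, from a mean level of -10.71 to -10.42, and was not called. With snoRNA135 1 was called lower too, but with snoRNA202, Y1, U87 and the global mean none was. All 5 were above 0 in that interval with snoRNA202 and with the global mean. The largest change against 0 h was that of miR-133b, reported to act in muscle fibre differentiation, at 3.96 ± 0.11, 5.61 ± 0.11 and 6.11 ± 0.11 (limma adjusted p = 3.20e-10, 1.23e-11 and 6.06e-12).

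Other miRNAs reported to act in myoblast differentiation were above their 0 h level at 36 h, as miR-378 was, and split in direction at 60 and 72 h (11 names, of which miR-181b is not among the assays). Of 9 tested, 5 were called higher and 0 lower at 36 h, 3 higher and 4 lower at 60 h, and 1 higher and 6 lower at 72 h. The tenth assay, miR-503, could not be tested against 0 h: it was undetected on all 0 h arrays and detected on 3 of 3 arrays at 36, 60 and 72 h (mean Ct 32.1, 32.3 and 30.8). Over all assays, 12.1%, 36.4% and 45.9% were called lower at these times. Their median changes were 1.41, -0.67 and -1.58, again beside 0.82, -0.37 and -0.77 over all tested assays. miR-322, which targets cell cycle mRNAs, had changes of 6.64, 5.96 and 5.96. miR-26a, reported to repress the histone methyltransferase Ezh2, had changes of 0.13, -2.76 and -3.90, and miR-24 of 0.60, -0.67 and -1.58. The split depends on the normalizer: at 72 h it was 1 higher and 3 lower with snoRNA135, and 6 higher and 0 lower with snoRNA202. At 36 h all 9 were above 0 with U6, and 5 of 9 with the global mean.

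The pattern most like that of miR-378 on card B belonged to miR-149, reported to repress Parp2 in mouse muscle. Likeness was the root mean square difference of the centred levels over the 12 arrays, and it covered the 69 other card B assays detected on all of them. These share their arrays and U6 values. miR-149 was at 0.318 (Pearson r = 0.97), against a median of 0.875 and a largest value of 2.89 over the 69. Its own log2 changes were 0.90 ± 0.11, 1.71 ± 0.11 and 1.83 ± 0.11, of which the last 2 were called (limma adjusted p = 7.09e-08 and 3.57e-08). The change at 36 h is -0.13 with Y1.

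Next came miR-378* at 0.420 (r = 0.47), miR-29b* at 0.446 (r = 0.21), miR-706 at 0.493 (r = 0.02) and miR-503* at 0.519 (r = 0.61). Most of these had small changes, as in miR-29b*, whose 3 changes lay between 0.04 and 0.07. miR-206 ranked 25th at 0.772, although its r was 0.89, because the measure counts the size of a change as well as its shape.

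miRNAs enriched in other cell types changed between the groups while miR-378 did so. In bulk RNA, fewer cells of a type and less RNA per cell cannot be told apart. On card A the summed level of the leukocyte markers (5 of 6 detected at 0 h, 6 of 6 later) lay between -5.38 and -5.34 at 0 h, -3.72 and -3.65 at 36 h, -6.57 and -6.44 at 60 h and -7.42 and -7.28 at 72 h. The leukocyte sum hides members that differ: at 60 h against 0 h 3 of 5 tested were called higher and 1 lower, and at 72 h 2 higher and 1 lower. miR-150, the highest of them at 0 h, changed by -3.67 at 60 h and -4.21 at 72 h, while miR-223 changed by 4.06 and 3.81 and miR-142-3p by 5.91 and 5.61. The endothelial markers (2 of 2 detected) lay between -4.52 and -4.44, -2.29 and -2.28, -6.28 and -6.19, and -6.42 and -6.40 in the same order. The mesenchymal and smooth muscle markers (4 of 4) include miR-214, which is also in the myoblast differentiation list above. Their sum lay between -3.23 and -3.11, -2.76 and -2.70, -6.16 and -6.13, and -6.82 and -6.75. Relative to U6, these 3 sums were highest at 36 h and lay below their 0 h values at 60 and 72 h. At those times miR-378 relative to U6 was above its own 0 h value. This contrast depends on the normalizer. On card A snoRNA202 itself changed by -2.40 at 60 h and -3.05 at 72 h relative to U6. Those shifts exceed the falls of the leukocyte and endothelial sums, but not that of the mesenchymal and smooth muscle sum.

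The muscle fibre markers on card A (3 of 5 detected, with miR-208b and miR-499 at no Ct) had a higher sum in each later group. The mouse assay of miR-1 nevertheless went from -12.45 at 36 h to -13.72 at 60 h and -12.86 at 72 h. The rat assay of miR-1, which is not part of the sum, went from -10.71 at 36 h to -10.42 at 60 h and -10.09 at 72 h. The summed level of the markers is carried by miR-133a and miR-133b. It lay between -9.99 and -9.82 at 0 h, -7.47 and -7.41 at 36 h, -6.60 and -6.45 at 60 h and -5.90 and -5.71 at 72 h. The part of any of these cell types in the values of miR-378 was not tested.

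miR-486 stayed without a Ct in every group, quiescent and activated. Of the 375 card A assays, 129 (34.4%) likewise gave no Ct on any of the 12 arrays, and the highest Ct recorded on card A was 39.4. If the assay had crossed its threshold at the limit of Ct 35, its level would have been between -20.14 and -19.59, depending on the U6 of the array, and at the last cycle, 40, between -25.14 and -24.59. Its level therefore was not detectable on these cards. Since no array gave a Ct, none of them shows that the assay worked.

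The authors' deposited table lists miR-486 with a Ct of 40 in these groups and an average fold over day 0 of 0.711 at day 1.5 and 1.01 at day 2.5. On the log2 scale the entries of the authors' deposited table are -0.49 and 0.02, which are also the changes in the mean U6 Ct of card A, and they hold no signal of miR-486. With Ct 35 written in for every array, limma gives -0.49 at 36 h (adjusted p = 4.23e-06), 0.02 at 60 h (adjusted p = 0.748) and -0.26 at 72 h (adjusted p = 0.000545), none of them called. These are differences in U6 between the groups.

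miR-451, a miRNA of red blood cells, was measured on the same card A arrays as miR-486. It was not detected on any 0 h array, was detected on 3 of 3 arrays at 36 h (level -14.07 to -12.99, mean Ct 28.5) and at 60 h (-18.79 to -16.07), and on 1 array at 72 h (-19.66). No Ct of miR-486 accompanied it at 36 h. The other erythroid markers of the list, miR-144 and miR-144*, are not among the assays. A within-array difference of miR-378 and miR-486 could not be formed, since they are on different cards and miR-486 has no Ct.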

How the data were processed

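The authors deposited, per the file headers, 1 file of Ct values per array, which lie on a log2 scale with the sign turned, and left spots without a signal empty. Log2 levels were computed here from these deposited Ct values. Per the labels, total RNA was extracted with Trizol and amplified for 40 cycles on TaqMan cards. How thresholds were set is not given in the sources used here. Fold changes in the authors' deposited tables are linear ratios averaged over replicates, and 48 per-sample columns, including those of a day 3.5 that the labels do not name, were not used.

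Spots of an assay were averaged and subtracted from the mean Ct of the 4 U6 spots of that array. Values at or above Ct 35 were left out, and 2 detected replicates per group were needed for a test. One limma 3.58.1 fit (R 4.3.3) per card over its 12 arrays gave the changes, with Benjamini-Hochberg adjustment over both cards. The fit was tested on simulated data. No 2 arrays were duplicates: the smallest median Ct difference was 0.0829. Alternatives were the normalizer, the detection limit, single spots, a replicate block and leaving out each array. Named assays are both members, other assays of the same hairpins, up to 4 of each list and the 5 nearest patterns. Members and lists were chosen with earlier results of these data known. The planned tests of miR-486 could not be run.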

Additional observations from a re-analysis of the deposited data

How the results depend on the processing

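The normalizer moved the changes of miR-378 most. At 36 h against 0 h the log2 change was 1.76 with snoRNA202 and, with normalizers added after seeing the data, 1.41 with snoRNA429 and 1.04 with U87, all called, but -0.38 with Y1 and -0.13 with the global mean. At 60 h the call was lost with Y1 (0.77), the global mean (0.97) and the second spot alone (0.98, added after seeing the data), and at 72 h with Y1 (0.39). From 36 to 60 h the change was called with snoRNA202 (1.82), Y1 (1.16), the global mean (1.10), snoRNA429 (1.31) and U87 (1.01), and from 36 to 72 h with snoRNA202 (1.97), the global mean (1.61), snoRNA429 (1.54) and U87 (1.15). From 60 to 72 h it turned to -0.38 with Y1. The cause was not tested beyond the shifts of the control RNAs themselves.

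Leaving out 1 array at a time gave 0.50 to 0.77 at 36 h, 0.88 to 1.15 at 60 h and 0.96 to 1.23 at 72 h against 0 h, and 0.33 to 0.41, 0.05 to 0.11 and 0.41 to 0.50 for 60 against 36, 72 against 60 and 72 against 36 h. The call was kept in 10 of 12 fits at 60 h and 11 of 12 at 72 h. Over all alternatives the limma adjusted p ran from 9.71e-08 to 0.338 at 36 h, 2.00e-10 to 0.00192 at 60 h and 1.73e-10 to 0.0391 at 72 h. With the replicate number as a block the change at 60 h stayed at 1.03 ± 0.14 (limma adjusted p = 0.000155), and no call changed. Same-numbered arrays did not deviate together (correlations on card B from -0.428 to 0.491, median -0.0223), so the numbers were not taken as pairs. Alternatives for miR-486 gave no value because it has no Ct.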
